A study of Mus musculus with 8 samples.

Results

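RelA binding was described at 10 immediate early genes, Egr1, Egr2, Egr3, Nr4a1, Klf2, Klf4, Klf6, Ier2, Ier5 and Myc, out of 21521 protein-coding genes in the gene table. A RelA peak was assigned to a gene when its centre lay inside the gene or within 50 kb of either end. By that rule 16 of the 9829 deposited peaks belonged to these genes, each to 1 of them. RelA (p65) is an NF-kB subunit that carries a transcription activation domain. Its binding sites were recovered with a p65 antibody by ChIP-seq, which sequences the DNA fragments that stay attached to a protein, from primary fibroblasts of C57BL/6 embryos of wild-type genotype. All cells were held overnight in low serum. The groups were 0 h without stimulation, 0.5 h and 3 h of the inflammatory cytokine TNF at 10 ng/ml, with 2 libraries each, and 2 libraries of input DNA for which no time was given. The deposited values were 1 list of mm10 peak positions, without heights or library columns. Therefore the peaks could not be assigned to a time, their depth was unknown, and the variation between replicate libraries could not be computed. Nothing in the list reports expression, so the labelled fibroblasts could not be checked against their marker genes.

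Immediate early genes are transcribed within minutes of a stimulus from factors already present in the cell, without new protein synthesis. Most of those studied here encode transcription factors, which pass a short signal on to a second layer of genes. The serum response factor, which binds CArG boxes, drives many of them after serum or growth factors. NF-kB reaches the nucleus on the same time scale after TNF, when its inhibitors are degraded.

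The share of these genes near a RelA peak was above that of protein-coding genes at large for each window used. A peak lay inside the gene or within 50 kb at 9 of 10 genes, against 43.2% of all protein-coding genes. The members are short, 1.52 to 20.9 kb, and a short gene searches less sequence. Among the 11825 protein-coding genes no longer than 20.9 kb, the share was 36.2%. Counting a peak within 10 kb, the numbers were 4 of 10 against 23.1% and 14.1%, and within 1 kb 3 of 10 against 17.0% and 7.31%. Within 100 kb all 10 had one, against 58.7% and 52.5%. The number of peaks ranged from 0 to 3 per gene with a median of 1.5, against a median of 0 over all protein-coding genes. The 10 windows covered 1.06 Mb and held 15.0 peaks per Mb, and the combined windows of all protein-coding genes held 4.58 per Mb. The median distance from a gene end to the nearest peak centre was 15.7 kb for the 10 genes, 70.8 kb for all protein-coding genes and 90.4 kb for the short ones. These values describe 1 list without replicates, and no test was made because the genes were chosen with earlier results of these data known.

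**Figure D1:**
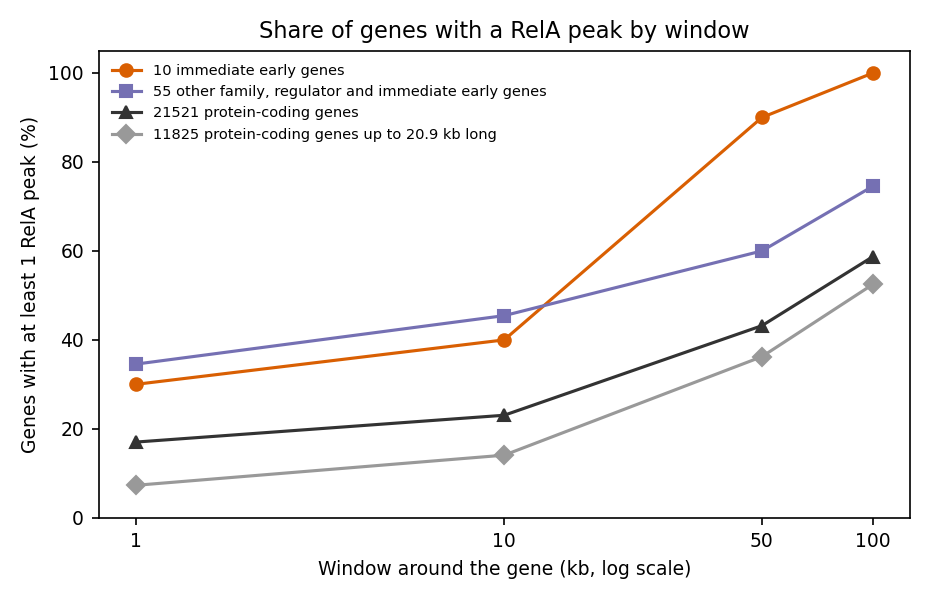
Share of genes with at least 1 RelA peak (y axis, percent) for windows of 1, 10, 50 and 100 kb around the gene (x axis, log scale), in the 10 immediate early genes, 55 other family, regulator and immediate early genes, all 21521 protein-coding genes and the 11825 of them up to 20.9 kb long. The 10 genes rise from 40% at 10 kb to 90% at 50 kb and pass the 55 other genes, which reach 60% at 50 kb.

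Within the 10 genes, the families differed in where their peaks lay. The peaks of the 2 IER genes were all within 5 kb of a gene end, those of the 3 EGR genes all beyond 10 kb, and the KLF genes had both kinds. The contrast did not extend to the whole IER family, since the nearest peak of Ier5l, outside the 10 genes, was 21.9 kb away. Of the 16 peaks, 7 were centred within 5 kb of an end and 9 beyond 10 kb. Measured to the nearest end of any protein-coding gene, the numbers were 9 and 7. Over the 9823 peaks on chromosomes they were 2217 and 6760. The 16 peaks were all within 50 kb of a gene by the rule, and the whole list had no such limit.

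**Figure D2:**
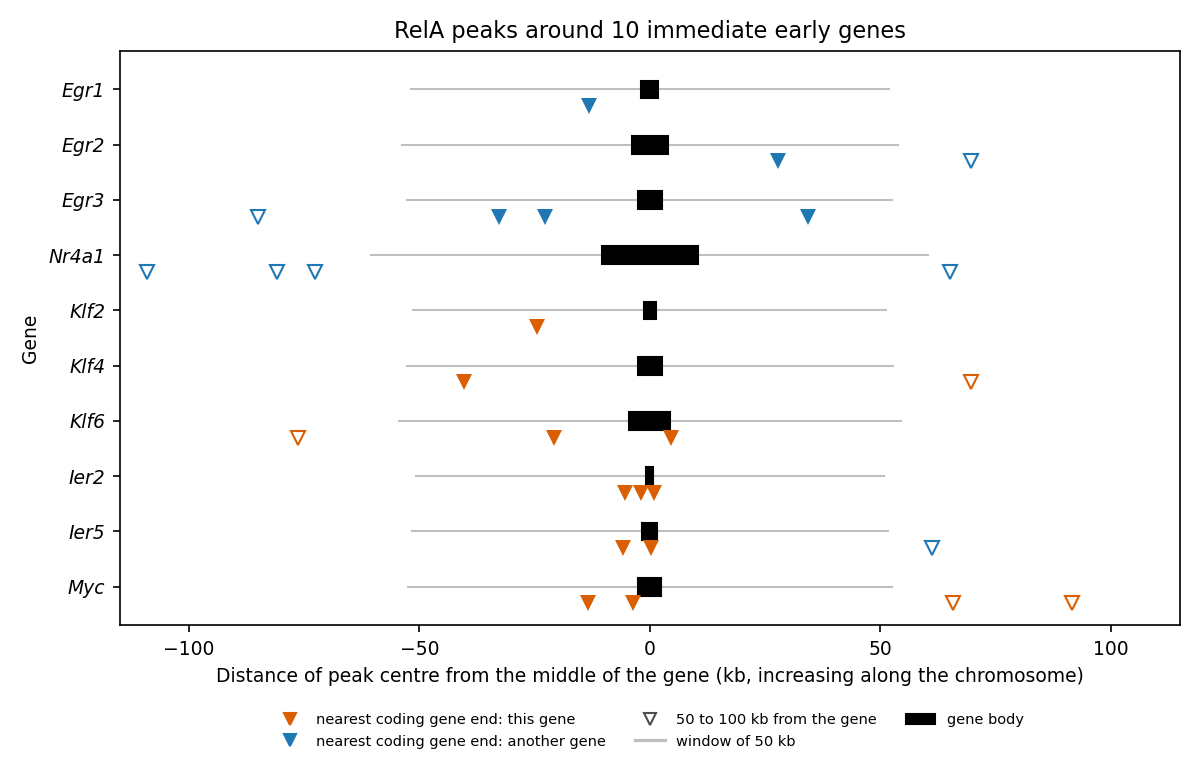
Positions of RelA peaks around each of the 10 genes, as distance of the peak centre from the middle of the gene (x axis, kb). Black boxes are gene bodies, grey lines the 50 kb windows, filled triangles the 16 peaks inside the windows and open triangles the 11 peaks from 50 to 100 kb. Orange triangles have their nearest protein-coding gene end at the gene shown, and blue ones at another gene, which holds for all 5 peaks of the EGR genes.

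The start sites of 6 of the 10 genes, Egr2, Nr4a1, Klf2, Klf4, Klf6 and Ier5, were given with strand and sequence by RefSeq (GRCm38.p6, the assembly that mm10 names), as promoter windows of 250 bases before to 50 bases after the start. Egr1, Egr3, Ier2 and Myc were not listed. None of the 10 windows of these 6 genes overlapped a RelA peak. The share of all promoter windows that overlap a peak was not computed. By a wider measure, 6.34% of all and 5.27% of the short protein-coding genes had a peak centre within 1 kb of either end. An absence at 6 genes is therefore not read as a trait of these promoters. The gap to the nearest peak edge was shortest at Ier5, with 0.662 kb, and longest at Nr4a1, with 62.2 kb. The sequences below show the letters at 4 of these starts: Ier5 with the closest peak, Klf6 with a peak at its other end, Nr4a1 with the most distant peak, and Egr2 for its CArG core. Capitals mark the general kappaB form, GGG then any 5 bases then CC, read on either strand, in the first 3, and the CArG core in Egr2. All are written 5′ to 3′ on the strand of the gene.
Ier5 (chr1:155099587-155099886, minus strand): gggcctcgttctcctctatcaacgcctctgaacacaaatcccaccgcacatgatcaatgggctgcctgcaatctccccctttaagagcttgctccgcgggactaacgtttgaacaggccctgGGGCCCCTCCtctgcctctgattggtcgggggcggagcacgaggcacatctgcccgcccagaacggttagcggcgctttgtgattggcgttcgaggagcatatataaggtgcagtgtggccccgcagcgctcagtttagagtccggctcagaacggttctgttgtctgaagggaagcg
Klf6 (chr13:5861239-5861538, plus strand): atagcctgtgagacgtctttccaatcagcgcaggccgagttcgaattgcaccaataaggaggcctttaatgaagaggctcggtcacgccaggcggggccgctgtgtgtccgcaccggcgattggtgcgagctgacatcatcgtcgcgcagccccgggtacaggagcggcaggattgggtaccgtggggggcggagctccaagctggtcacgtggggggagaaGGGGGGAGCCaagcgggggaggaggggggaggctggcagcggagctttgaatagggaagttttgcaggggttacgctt
Nr4a1 (chr15:101266596-101266895, plus strand): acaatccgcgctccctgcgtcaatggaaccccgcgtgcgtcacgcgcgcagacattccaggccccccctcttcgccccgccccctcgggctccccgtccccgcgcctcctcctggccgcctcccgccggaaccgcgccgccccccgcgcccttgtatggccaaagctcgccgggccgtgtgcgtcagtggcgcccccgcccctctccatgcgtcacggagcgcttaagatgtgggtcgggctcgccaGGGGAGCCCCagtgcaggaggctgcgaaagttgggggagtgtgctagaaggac
Egr2 (chr10:67537680-67537979, plus strand, the last of 5 listed starts): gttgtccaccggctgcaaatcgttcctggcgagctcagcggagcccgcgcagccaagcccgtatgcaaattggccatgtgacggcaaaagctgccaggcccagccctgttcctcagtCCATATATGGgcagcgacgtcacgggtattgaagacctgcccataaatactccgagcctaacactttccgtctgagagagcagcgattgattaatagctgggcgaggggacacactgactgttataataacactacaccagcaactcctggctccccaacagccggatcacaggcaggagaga

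KappaB letters were not limited to the genes with a close peak. The general form was present at all 6 genes, in 9 of the 10 windows, but also in 50.8% of 32817 promoter windows of the table. A kappaB consensus with fixed purine and pyrimidine positions, found in 4.50% of all windows, was present only at Nr4a1, the gene with no RelA peak within 50 kb. There the match GGGGAGCCCC began 3 bases before the start and is the one in capitals above. The match in Ier5, GGGCCCCTCC, began 128 bases before the start, and the one in Klf6, GGGGGGAGCC, 28 bases before it. The CArG core, found in 1.63% of all windows, was present at Egr2 alone. It occurred in 4 of its 5 windows, some of which overlap, and these 4 hold 2 distinct sites. In the window printed it was CCATATATGG, 133 bases before the start, and the nearest RelA peak edge was 27.8 kb away. The GC box GGGCGG, which SP and KLF factors bind, was present at 6 of 6 genes and in 7 of their 10 windows, against 35.6% of all windows. The cyclic AMP response core TGACG was present at 4 genes and in 6 of 10 windows, against 20.8%. The EGR site GCGNGGGCG was present in 3 of 10 windows, those of Klf2, Klf4 and Nr4a1, against 5.56%. Of the 10 windows 5 are those of Egr2. The general kappaB form can overlap the stricter one, the GC box and the EGR site, and all letters were searched on both strands. The sequence under the peaks themselves was not used here.

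Ier2 and Ier5 encode small proteins of the IER family, found in the nucleus and induced by growth factors and stress. They held 5 of the 16 peaks, with centres 0.221 to 4.60 kb from a gene end. Ier2 (chromosome 8, 84661331 to 84662852) had 3 peaks, a number reached by 7.36% of all and 4.53% of the short protein-coding genes. One of 491 bp, from 84662828 to 84663318, overlapped the upper end of the gene and was centred 0.221 kb beyond it. The others, 565 and 746 bp wide, were centred 1.11 and 4.60 kb beyond the lower end. The 3 centres were spaced by 2.85 and 3.50 kb, so this was the tightest group among the 10 genes. The Ier2 window was also crowded with genes. All 3 peaks lay within 50 kb of the same 5 other protein-coding genes, Nacc1, Cacna1a, Trmt1, Lyl1 and Nfix, but each was nearer to Ier2 than to any of them. The closest, the transcriptional regulator gene Nacc1, lay 7.40 to 13.7 kb from their centres.

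Ier5 (chromosome 1, 155096367 to 155099636, minus strand) had the only peak centred inside 1 of the 10 genes. This peak, from 155097764 to 155098925, was centred 1.29 kb downstream of the start and at 1162 bp was the widest of the 16, as wide as or wider than 96.6% of all peaks. The second Ier5 peak was 634 bp wide and was centred 4.28 kb beyond the other end of the gene, 7.55 kb downstream of the start. The other coding gene in reach of both was Mr1, whose product presents vitamin B metabolites to T cells, at 29.5 and 35.8 kb. A further peak, 59.6 kb from Ier5 and outside the window, lay 0.561 kb from an end of Stx6, a syntaxin gene.

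Klf2, Klf4 and Klf6 encode Krüppel-like zinc finger transcription factors. Klf2 is known for its part in quiescent lymphocytes and endothelium, and Klf4 as a factor used to reprogram fibroblasts to pluripotency. They had 4 peaks in all, none of them centred inside a gene of any kind. Klf6 (chromosome 13, 5861489 to 5870393, plus strand) had the peak closest to a gene end, from 5870243 to 5870664, centred 0.0605 kb from it. That end was the downstream one, so the peak, which overlapped the gene end, was centred 8.96 kb downstream of the start. At 422 bp it was the narrowest of the 16, and 1.29% of all peaks were as narrow. The second Klf6 peak, 863 bp wide, lay 16.4 kb upstream of the start. Klf2 (chromosome 8, 72319062 to 72321654) had 1 peak of 675 bp, 23.2 kb upstream of its start. Klf4 (chromosome 4, 55527137 to 55532475, minus strand) had 1 peak of 537 bp, 43.0 kb downstream of its start and 37.7 kb from the gene. This was the largest distance of any of the 16 peaks from its gene. The nearest other coding gene end was 97.2 kb from the Klf4 peak and 678 to 703 kb from the Klf6 peaks, so 3 of the 4 peaks lay within 50 kb of no other coding gene. The Klf2 peak was also within 50 kb of Ap1m1 and Eps15l1, genes of vesicle transport, but nearer to Klf2.

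Myc, which encodes a transcription factor of cell growth, lies on chromosome 15 at 61985341 to 61990361 and had 2 peaks, both on its lower side. The closer one, 61984051 to 61984539, was 489 bp wide and centred 1.05 kb from the gene end. The other, 61973972 to 61974779, was 808 bp wide and centred 11.0 kb from it. No other protein-coding gene lay within 50 kb of these peaks, and the nearest such end was 1053 kb away. Beyond the window, on the upper side, 2 more peaks lay 63.2 and 89.1 kb from Myc, both inside the long noncoding RNA gene Pvt1.

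Egr1, Egr2 and Egr3 encode zinc finger transcription factors that bind the GC-rich EGR site. All 3 had a peak within 50 kb and none had one within 10 kb. Their 5 peaks were centred 11.3 to 31.6 kb from the gene, and every one was nearer to an end of another coding gene. Egr1 on chromosome 18 had 1 peak of 841 bp, 11.3 kb away. It was nearer to Reep2, a gene for a protein that shapes the endoplasmic reticulum, at 2.45 kb, and Kdm3b, a histone demethylase gene, was closer than Egr1 as well. Egr2 (chromosome 10, 67534469 to 67542188, plus strand) had 1 peak from 67565766 to 67566737. It was 972 bp wide and lay 24.1 kb beyond the downstream end, on the far side of Ado, a thiol dioxygenase gene, whose end was 17.3 kb away. Egr3 (chromosome 14, 70077317 to 70082613) had 3 peaks, as many as Ier2, but at 20.1, 30.0 and 31.6 kb. All were inside neighbouring genes: the 742 and 708 bp peaks in Pebp4, a gene of the phosphatidylethanolamine-binding family, and the 789 bp peak in Bin3, which encodes a membrane-bending BAR domain protein.

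Nr4a1, the gene for the orphan nuclear receptor Nur77, was the 1 gene with no peak in its window. It lies on chromosome 15 at 101253902 to 101274795. Its nearest peak, 743 bp wide, was centred 54.6 kb from the upper end and was nearest to the keratin gene Krt80, at 18.9 kb. On the lower side 3 peaks lay 62.2, 70.3 and 98.7 kb away, the first 2 of them inside Acvr1b, an activin receptor gene. Thus Klf4 at 37.7 kb and Nr4a1 at 54.6 kb stood on either side of the 50 kb limit.

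Most of the peaks were shared with neighbouring genes. Of the 16 peaks, 11 (68.8%, Wilson 95% interval 44.4 to 85.8%, counting error only) were also within 50 kb of another protein-coding gene, against 75.8% of all gene and peak pairs and 94.4% of those of short genes. The interval treats the peaks as independent. Peaks at the same gene tend to have the same neighbours, as at Ier2 and Ier5, so it is probably too narrow. The 5 unshared peaks were those of Klf4, Klf6 and Myc. The nearest protein-coding end belonged to the gene itself for 11 of 16 peaks (68.8%), against 46.8% of all pairs and 26.9% of those of short genes. These 11 were all the peaks of the KLF and IER genes and Myc, and the other 5 were those of the EGR genes.

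The 16 peaks measured 422 to 1162 bp with a median of 725 bp. All peaks together ranged from 301 to 2015 bp, with a median of 687 bp and quartiles of 587 and 816 bp. Below the lower quartile were 5 of them and above the upper quartile 4. The 7 peaks within 5 kb of a gene end had a median of 565 bp, and 5 of them were below the median of all peaks. The 9 peaks beyond 10 kb had a median of 789 bp, with 2 below it. Over the whole list, distance can only be taken to the nearest end of any protein-coding gene. By that measure the medians of the 16 peaks were 634 bp for the 9 within 5 kb and 789 bp for the 7 beyond 10 kb. Those of the whole list were in the other order, with 717 bp for 2217 peaks and 680 bp for 6760. The list gives no peak height, so a narrow peak cannot be read as weak binding.

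**Figure D3:**
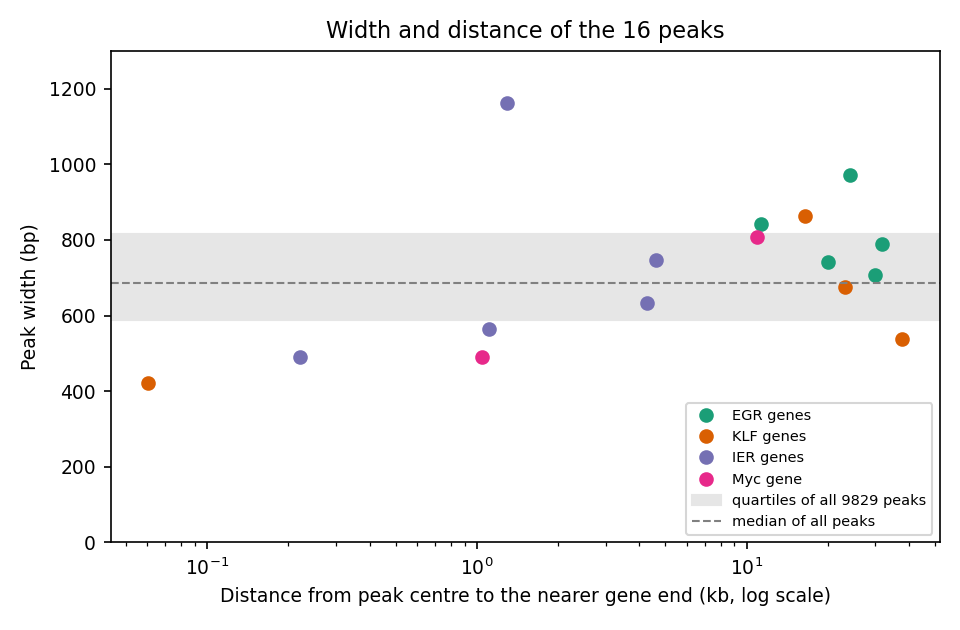
Width of each of the 16 peaks (y axis, bp) against the distance of its centre to the nearer end of its gene (x axis, kb, log scale), coloured by family. The grey band and dashed line are the quartiles and the median of all 9829 peaks, 587, 816 and 687 bp. The peaks of Klf6, Ier2 and Myc nearest to their genes are 422, 491 and 489 bp wide, below the band, and the wide peak close to a gene is that of Ier5 at 1162 bp.

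Related genes were compared by the same 50 kb rule. Of 55 other genes, 33 (60.0%) had a peak, with a median of 1 per gene, against the 43.2% of all protein-coding genes. This was below the 9 of the 10 genes. With a peak inside the gene or within 10 kb, the shares were 45.5% of the 55 genes and 40% of the 10. With 1 kb they were 34.5% and 30%. These shares include peaks deep inside long genes, so they do not rank the sets by closeness. Sgk1, 118 kb long, was counted although its nearest peak was 40.0 kb from an end. Measured to a gene end, a peak lay within 1 kb at 8 of the 55 genes and 2 of the 10. The remaining family members were not alike. Egr4 had none, and its nearest peak was 373 kb away. Nr4a2 had 1 of 1490 bp, centred inside the gene and 8.14 kb from its end, and Nr4a3 had none, with its nearest peak 456 kb away. Both Ier3 and Ier5l had peaks, 4 and 2, with the nearest at 0.236 and 21.9 kb. Of the 14 other KLF genes 5 had one (35.7%), namely Klf3, Klf5, Klf10, Klf13 and Klf16. Of 8 genes of the MYC network, which encode partners and relatives of Myc, 3 had a peak, Mnt, Mycl and Mycn. Of 8 genes for regulators of EGR activity, 5 had one. The nearest peak lay outside the gene at the serum response factor gene Srf (36.7 kb from its end), at its partner gene Mrtfa (4.90 kb) and at the EGR corepressor gene Nab2 (2.32 kb). It was centred inside the gene at the partner gene Elk3, 1.27 kb from an end, and at the corepressor gene Nab1, 14.6 kb from an end. Elk3 held 3 peaks within its body and Mrtfa 2. Among 20 further immediate early genes, 17 (85.0%) had a peak, close to the 9 of the 10 genes. Their median was 2 peaks per gene, against 1.5 for the 10. With a peak inside the gene or within 10 kb their share was 65.0%, and with 1 kb 45.0%, against 40% and 30% of the 10. A high share of genes near a peak was therefore not particular to the 10 genes.

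Peaks centred at most 1 kb from an end of the gene itself were found at 8 of the 55 genes, and at Klf6 and Ier2 among the 10, against 6.34% of all protein-coding genes and 5.27% of the short ones. The 8 were Btg2, an antiproliferative gene, at 0.021 kb, the transcription factor gene Atf3 at 0.0435 kb, the clock gene Per1 at 0.196 kb, the stress response gene Ier3 at 0.236 kb, the KLF family gene Klf10 at 0.288 kb, the stress sensor gene Gadd45b at 0.320 kb, the AP-1 gene Junb at 0.437 kb and the repressor gene Mnt at 0.454 kb. Btg2, Ier3 and Gadd45b had 4 peaks each within 50 kb, more than any of the 10 genes.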

How the data were processed

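The submitters' processing notes name the mm10 build and MACS2, deepTools, Picard 1.13, SAMtools, Bowtie2 2.3 and cutadapt 1.9.1. Not given in the sources used here were the step of each tool, the peak threshold, the use of input and the pooling of libraries. The deposited values are other than a measured level: the start, counted from 0, and the end of each peak, in 3 columns with the chromosome. Cells were fixed with disuccinimidyl glutarate before formaldehyde, per the labels' protocols, so RelA held on DNA by a partner protein can also give a peak. Starts were converted to positions counted from 1. Genes came from a RefSeq table of GRCm38.p6 with 49209 genes on chromosomes 1 to 19 and X, after 345 genes on patches or unplaced scaffolds were left out. The 6 peaks on contigs entered only the width quartiles and the total. Counts were made in Python 3.11.15 with pandas 2.3.3, and the overlap and distance code was tested on simulated peaks. The genes and lists were chosen with earlier results of these data known. The text names the 10 genes, the coding gene nearest to each of their peaks, and list genes with a peak within 1 kb of an end. Other genes were named after their values were seen. The alternatives were other windows, any overlap, wider peaks, merged peaks, nearest end only, neighbours of any kind, short genes as background and a stricter kappaB form.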

Additional observations from a re-analysis of the deposited data

How the results depend on the processing

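No paired analysis was possible because the peak list has no column per library, and no replicate could be left out for the same reason. The window decided most values. With 1 and 10 kb, 3 and 4 of the 10 genes had a peak, there were 3 and 7 distinct peaks, and the median number per gene was 0 and 0. Counting neighbours within the same 1 or 10 kb, 0% and 14.3% of these peaks were shared. Because the reach for neighbours shrank too, these shares cannot be set against the sharing within 50 kb. With 100 kb there were 27 distinct peaks and a median of 3 per gene. With the wider peaks alone there were 9 peaks, at 7 of the 10 genes against 28.5% of all protein-coding genes. Among the 55 other genes, 19 (34.5%) had a peak with the 1 kb window. When a peak was given only to the nearest protein-coding end, 6 of the 10 genes had one against 21.9% of all protein-coding genes, and their median nearest distance was 1.17 kb. With genes of any kind as neighbours, 100% of the 16 peaks were shared. With the stricter kappaB form, 1 of 6 genes held a match. Merging peaks within 1 kb and counting any overlap moved none of these values by over 1.5 times. Of 70 recomputed counts for single genes, 41 stayed within 1.5 times and 29 did not. Depth was unknown, so a gene without a peak cannot be read as unbound.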
